A study of Drosophila melanogaster with 6 samples.

Results

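The Mst84D, Mst87F and Mst98C genes of Drosophila melanogaster, with dj and djl, were followed in the RNA of adult testes. They are 9 of the 17559 genes counted in 6 libraries. They were chosen by name as sperm tail genes and not by their values, but with earlier results of these data known. The study overexpressed the microRNA miR-2b-1 and asked which genes differ in such testes. The 3 control libraries came from actin5C-Gal4>w1118 males and the 3 overexpression libraries from actin5C-Gal4>UAS-miR-2b-1 males, all aged 3 to 5 days and raised from crosses kept at 28 °C. The control cross is called OreR at one place in the study and w1118 in the labels. The actin5C-Gal4 driver, present in both groups, is broadly active and is not limited to the germ line, and the GAL4 protein switches on the UAS transgene. Each library was made from the pooled testes of many flies, so the spread between libraries is a spread between pools. Nothing states that the pools came from separate crosses, and the p-values measure only the spread between these libraries. The groups differ in the transgene and in the parental stock that carried it, and the effects of these 2 cannot be told apart.

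In the male germ line of Drosophila most transcription stops before the meiotic divisions, so mRNAs for the sperm tail are made in primary spermatocytes, stored, and translated days later in elongating spermatids. The Mst84D, Mst87F and Mst98C genes encode proteins built from repeats of cysteine, glycine and proline that become part of the sperm tail, and their mRNAs are a classical case of such delayed translation. Don juan (dj) and don juan-like (djl) encode lysine-rich proteins of the late spermatid that are found with the mitochondrial derivatives along the flagellum. A microRNA pairs through its seed with sites in mRNAs and lowers their translation or stability. The counts here measure mRNA and not protein. Where 3 values are given for a group, they follow the order of replicates 1, 2 and 3.

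All 9 genes lie on chromosome 3R, and 8 of them stand in 3 clusters (Ensembl release 115 annotation of the BDGP6 assembly, dm6 coordinates). Mst84Dd (7363307 to 7363773), Mst84Dc (7364254 to 7364673) and Mst84Db (7365160 to 7365627) are on the minus strand, and Mst84Da (7365850 to 7366262) is on the plus strand, 222 bases from Mst84Db. Each of these 4 genes has 1 intron and encodes a protein of 55 to 74 residues. Mst87F (13827151 to 13828008, minus strand) stands alone and encodes 56 residues. Mst98Ca (28291338 to 28292656) and Mst98Cb (28292798 to 28293863) are plus-strand genes without an intron, 141 bases apart, with 334 and 265 residues. The gene dj (7059315 to 7060524) is followed after 242 bases on the plus strand by djl (7060767 to 7061919), with 248 and 286 residues. Nucleotide and protein sequences were not used here, so reads that fit more than 1 of these related genes could not be judged.

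The libraries held 18047619 to 20282355 counts on genes in the control and 21202512 to 27789620 under overexpression. The mir-2b-1 gene had 0 counts in each of the 6 libraries, which allows up to 3 counts per library, so its counts could not check the labels. The spermatocyte tubulin gene betaTub85D was at 3005 ± 317 CPM (counts scaled to the library size with TMM factors, SD, n = 3) in the control and at 2772 ± 84.4 CPM under overexpression. Of 16 accessory gland genes measured, Acp95EF was at 0 in each library, and the list made up 1.00%, 0.0160% and 0.597% of the control libraries and 0.0481%, 0.131% and 1.01% of the overexpression libraries, with overlap. The summed level of 4 ejaculatory duct genes was 24.9 to 138 CPM in the control and 16.8 to 971 CPM under overexpression, with the highest value in overexpression replicate 3. The lists of fat body, cyst and hub, and early germline genes had groups that overlapped in their summed levels, and of these lists and the gland and duct lists edgeR called 0 genes. Without control replicate 3 it called 2 of the 5 fat body genes, both lower. The summed level of 6 muscle genes was 186 to 392 CPM in the control and 109 to 127 CPM under overexpression, without overlap. Mhc (muscle myosin heavy chain), Mlc1 and Mlc2 (myosin light chains) of these 6 were called lower, against 1.51% of all genes, with log2 fold changes of -0.93, -1.77 and -1.35 (edgeR adjusted p = 0.00470, 0.0105 and 0.0221). Without overexpression replicate 2, 0 of the 6 muscle genes passed the test, without control replicate 2 or overexpression replicate 1 the number was 1, and without control replicate 1 or control replicate 3 it was 5 or 6. Their part in the values of the sperm tail genes was not tested. With the accessory gland and ejaculatory duct counts removed, the log2 fold changes of dj and Mst98Ca were -0.35 and -0.32, as with these counts. This removal took out only the listed genes, at most 1.11% of a library, so little change could follow from it. The part of other gland and duct RNA was not tested.

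Of the 9 sperm tail genes, 8 were among the abundant transcripts of the testis in both groups and Mst84Da was not, and 0 of the 9 passed the test between miR-2b-1 overexpression and control. Each gene was tested with edgeR's quasi-likelihood test (Benjamini-Hochberg adjusted p under 0.05), fitted on all 17559 genes, of which 2.81% were called (1.29% higher and 1.51% lower). At an unadjusted p under 0.05 there were 2 of the 9, dj and Mst98Ca, where 19.3% of the 12441 genes that passed edgeR's filter on low counts were under it, so this count is near the background. DESeq2 also called 0 of the 9, against 5.48% of the 13539 genes to which it gave an adjusted p. The fitted log2 fold change was negative for 8 of the 9 and positive for Mst84Db, with a median of -0.19 against 0.01 for the 12441 filtered genes. Of these filtered genes, 6020 were negative and 6421 positive. All 9 passed that filter. With library totals as the only scaling, the median of all filtered genes moved to 0.12, that of the 9 to -0.08, and Mst84Da and Mst84Dc were then positive too. In bulk testis RNA, fewer cells of a stage and less RNA per cell cannot be told apart.

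**Figure D1:**
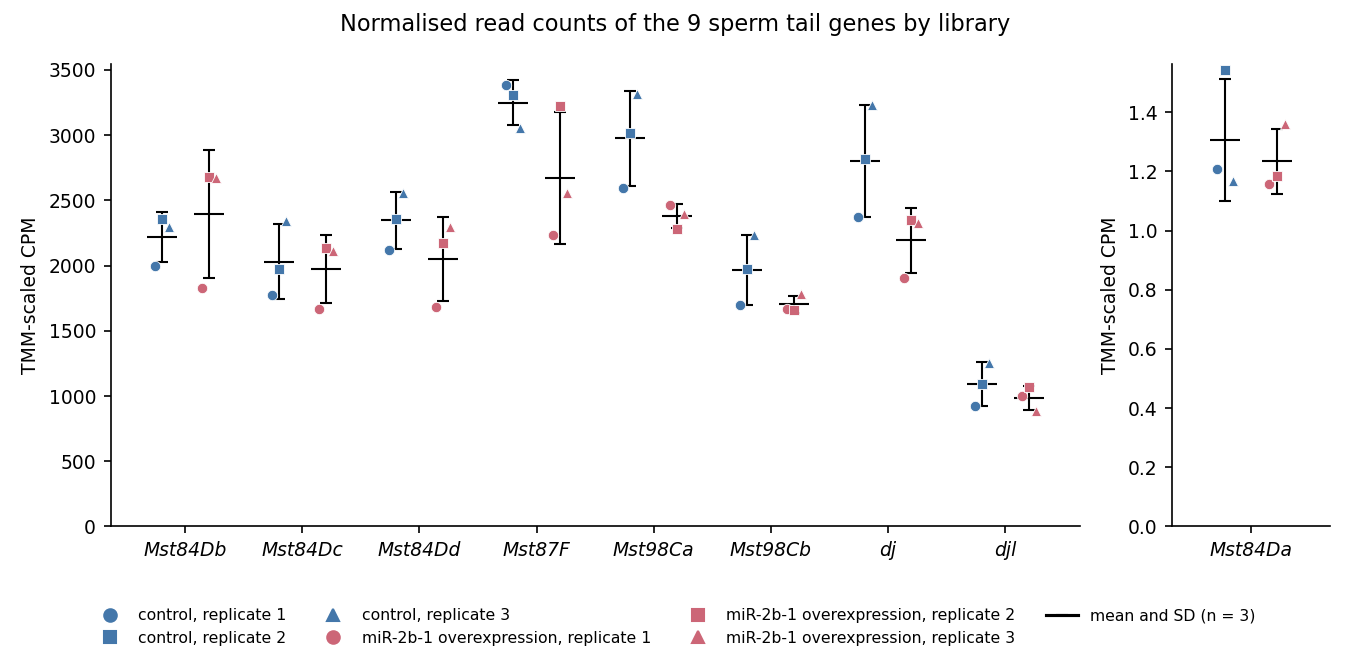
Normalised read counts (TMM-scaled CPM, y axis from 0) of the 9 sperm tail genes in the 6 libraries. Blue points are the 3 control libraries and red points the 3 miR-2b-1 overexpression libraries, with the mean and SD in black. Mst84Da has its own axis because it stayed between 1.16 and 1.54 CPM, while the lowest value of the other genes was 887 CPM. The control and overexpression points are apart for Mst98Ca and dj and overlap for the others.

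Together the 9 genes made up 1.70%, 1.81% and 1.87% of the control libraries and 1.52%, 1.82% and 1.76% of the overexpression libraries. The 2 groups overlapped in this share, with means of 1.79 ± 0.0842% and 1.70 ± 0.159% (SD, n = 3 each). Levels were compared between genes after division by the length of the annotated exons. Per kilobase of exon, Mst84Dd (5653 ± 528 CPM), Mst84Dc (5594 ± 797 CPM), Mst84Db (5343 ± 461 CPM) and Mst87F (5214 ± 278 CPM) led in the control (SD, n = 3), and neighbours among these 4 overlapped in their libraries. By this level they were numbers 7, 9, 11 and 12 of 17253 genes with an exon length. Below them stood dj (2318 ± 354 CPM), Mst98Ca (2255 ± 274 CPM) and Mst98Cb (1846 ± 253 CPM), and then djl (993 ± 152 CPM).

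The step from Mst87F to dj was 2.25-fold in the control and 2.36-fold under overexpression per kilobase, with no overlap in either group. The step from Mst98Cb to djl, of 1.86-fold and 1.78-fold, was also without overlap. The genes dj and Mst98Ca could not be ordered, as their libraries overlapped in both groups. Under overexpression, Mst84Db (5763 ± 1182 CPM per kilobase, SD, n = 3) stood at the top and was number 3 of all genes, followed by Mst84Dc, Mst84Dd and Mst87F at numbers 4, 7 and 9. The order of the means within these 4 thus differed between the groups, but their libraries overlapped. Within single overexpression libraries, Mst84Dc was above Mst84Dd and Mst84Dd above Mst87F in 3 of 3. Mst84Db was above Mst84Dc in 2 of 3. In the control, each step of the order among these 4 held in 2 of 3 libraries. The exons of Mst87F add up to 623 bases, while its 2 annotated transcripts are 446 and 515 bases long. With either of these lengths its mean control level is 7283 or 6307 CPM per kilobase, above the control means of the Mst84D genes. Single libraries and the overexpression group were not compared at these lengths.

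**Figure D2:**
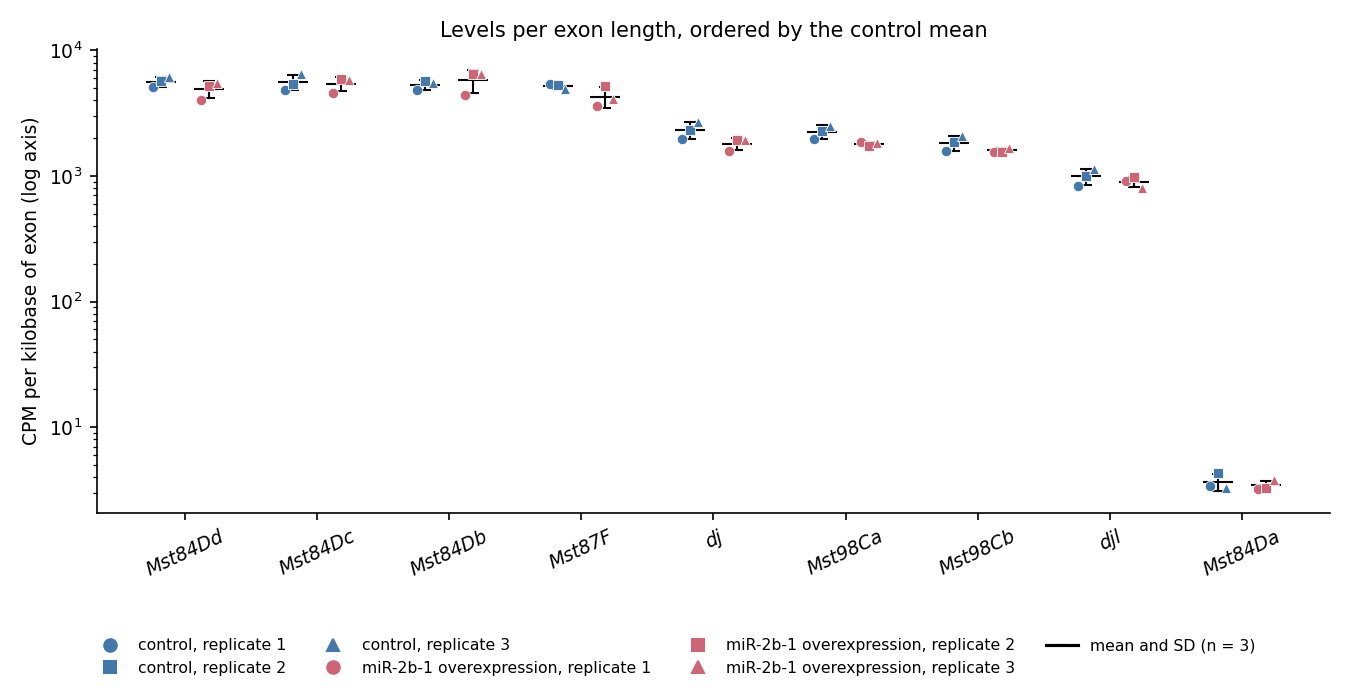
Level of each gene per kilobase of exon (TMM-scaled CPM per kilobase, logarithmic y axis), ordered by the control mean, with 3 control libraries in blue, 3 overexpression libraries in red, and the mean and SD in black. The 3 abundant Mst84D genes and Mst87F sit together at the top, dj, Mst98Ca and Mst98Cb form a second step, djl stands below them, and Mst84Da lies at 3.65 and 3.45 CPM per kilobase in the 2 groups.

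Mst84Da stood apart from its own cluster. It had 22, 30 and 20 counts in the control and 30, 26 and 39 counts under overexpression, where Mst84Db, Mst84Dc and Mst84Dd each had 32282 to 76670 counts per library. The count of each of these 3 genes was 1281 to 2260 times that of Mst84Da in the same library. Of the 358 exon bases of Mst84Da, 269 (75.1%) are also exon of MstProx (7365939 to 7369305), a gene on the opposite strand, and 89 are not. MstProx had 65 to 71 counts in the control libraries and 97 to 124 under overexpression. The strand setting and the handling of reads that fall on 2 genes were not given in the sources used here, and the part of this overlap in the low count was not tested. The log2 fold change of Mst84Da (-0.083, 95% interval -0.82 to 0.66, edgeR adjusted p = 1.00) rests on these few counts, and its sign changed without control replicate 2 (0.055). For Mst87F, 41 of 623 exon bases are shared with lncRNA:CR43300 on the opposite strand, which had 12 to 38 counts per library.

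Among the other Mst84D genes, which encode short cysteine-rich proteins of the sperm tail, Mst84Db was at 1999, 2357 and 2295 CPM in the control and at 1825, 2676 and 2673 CPM under overexpression. Its highest 2 and its lowest library were all overexpression libraries, and the log2 fold change was 0.11 (standard error 0.167, 95% interval -0.24 to 0.46, edgeR adjusted p = 0.898). Mst84Dc was at 1773, 1975 and 2343 CPM in the control and at 1671, 2136 and 2114 CPM under overexpression. The groups overlapped, with a log2 fold change of -0.041 (95% interval -0.37 to 0.29, edgeR adjusted p = 1.00), whose sign changed without control replicate 3 (0.075) and without overexpression replicate 1 (0.066). Mst84Dd was at 2121, 2357 and 2559 CPM in the control and at 1685, 2171 and 2298 CPM under overexpression. Overexpression replicate 1 was the lowest of the 6 libraries for each of these 3 genes. The log2 fold change of Mst84Dd was -0.19 (standard error 0.157, 95% interval -0.52 to 0.14, edgeR adjusted p = 0.665).

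Mst87F, the single-copy relative of the Mst84D genes, was at 3384, 3308 and 3053 CPM in the control. Under overexpression it was at 2234, 3222 and 2553 CPM. Overexpression replicate 2 lay within the control values and the other 2 below them. The log2 fold change was -0.28 (standard error 0.160, 95% interval -0.62 to 0.05, edgeR adjusted p = 0.449).

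Mst98Ca, which encodes the longest protein of the 9, was at 2595, 3013 and 3316 CPM in the control and at 2461, 2278 and 2397 CPM under overexpression. All 3 overexpression libraries lay below all 3 control libraries. The log2 fold change was -0.32 (standard error 0.148, 95% interval -0.63 to -0.011), with an unadjusted p of 0.0435 and an adjusted p of 0.319 over all genes from edgeR. Its neighbour Mst98Cb was at 1695, 1974 and 2234 CPM in the control and at 1666, 1660 and 1780 CPM under overexpression. The groups overlapped only through control replicate 1, and the log2 fold change was -0.21 (standard error 0.148, 95% interval -0.52 to 0.10, edgeR adjusted p = 0.596). The spread between libraries of both genes was wider in the control (SD 12.2% and 13.7% of the mean) than under overexpression (3.90% and 3.97%, n = 3 each), a difference that was not tested.

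The gene dj had the lowest fitted fold change of the 9. It was at 2371, 2814 and 3228 CPM in the control and at 1905, 2352 and 2325 CPM under overexpression. The overexpression libraries lay below the control libraries, and the nearest of them, at 2352 and 2371 CPM, were almost level. The log2 fold change was -0.35 (standard error 0.159, 95% interval -0.69 to -0.019), with an unadjusted p of 0.0395 and an adjusted p of 0.307 over all genes from edgeR. With plain CPM on library totals, the groups of dj overlapped, while those of Mst98Ca did not. The gene djl was at 921, 1095 and 1255 CPM in the control and at 1002, 1070 and 887 CPM under overexpression. These groups overlapped, with a log2 fold change of -0.14 (standard error 0.152, 95% interval -0.47 to 0.18, edgeR adjusted p = 0.772).

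Thus 2 of the 9 genes, Mst98Ca and dj, had groups that did not overlap, where 25.4% of the 12441 genes that passed the filter had such groups, so the count is near the background. Leaving out Mst84Da, the 95% intervals of the 8 other genes ran from 0.620-fold (dj) to 1.38-fold (Mst84Db). A change beyond these bounds is outside the interval of each of the 8. A smaller change can be inside the interval of some of them and outside that of others. That of dj was 0.620-fold to 0.987-fold and that of Mst84Db 0.845-fold to 1.38-fold. Each 95% interval holds for its own gene and not for the 8 jointly. In counts simulated for this comparison over 17559 genes, the test called 0.5% of the genes changed by 0.5 on the log2 scale, 18.5% of those changed by 1 and 97% of those changed by 2. At these sizes, 5, 7 and 22 unchanged genes were also called. The changed genes were drawn at random from genes down to low levels, not from genes as abundant as these 8. The shares therefore do not tell how often a change in these 8 would be called.

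**Figure D3:**
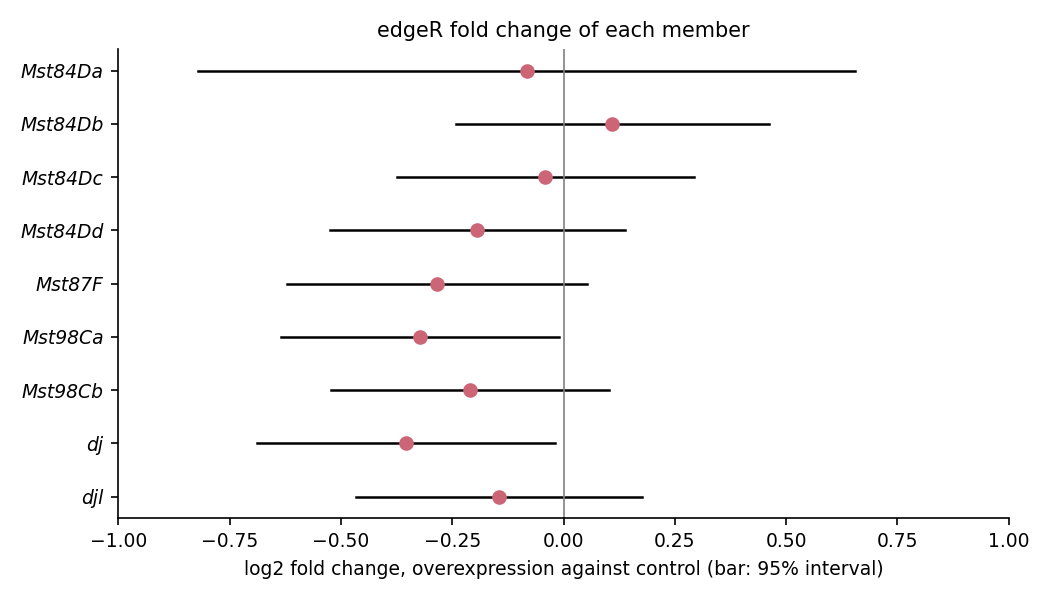
Fitted log2 fold change of each gene under miR-2b-1 overexpression against control (x axis, points), with its 95% interval (bars), from edgeR on 3 libraries per group. The intervals of Mst98Ca and dj end just below 0, those of the other 7 genes include 0, and that of Mst84Da is the widest of the 9.

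Within the clusters, the balance between the genes was read from their shares of the counts. Of the counts of Mst84Db, Mst84Dc and Mst84Dd together, Mst84Dd took 36.0%, 35.2% and 35.6% in the control and 32.5%, 31.1% and 32.4% under overexpression. These shares did not overlap, with means of 35.6 ± 0.381% and 32.0 ± 0.802% (SD, n = 3 each). How often such shares keep apart in other groups of genes was not counted, so there is no background for them. Mst84Db took 33.7 ± 1.69% and 37.1 ± 1.65%, with an overlap of 1 library of each group, and Mst84Dc 30.7 ± 1.62% and 30.9 ± 1.23%. Of the counts of the Mst98C pair, Mst98Ca took 60.5%, 60.4% and 59.7% in the control and 59.6%, 57.8% and 57.4% under overexpression. These groups did not overlap either, but their nearest libraries, at 59.7% and 59.6%, were almost level. Per kilobase, Mst98Ca was above Mst98Cb in 6 of 6 libraries, by 1.09-fold to 1.24-fold.

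The share of dj in the dj and djl pair was 72.0% in each of the 3 control libraries (SD 0.0192%) and 65.5%, 68.7% and 72.4% under overexpression. Overexpression replicate 3 was above the control and the other 2 were below it, so the groups overlapped and the difference in their means rested on overexpression replicates 1 and 2. The shares were chosen for description after the counts had been seen, and with 3 libraries against 3 an exact two-sided permutation test cannot go below 0.1.

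**Figure D4:**
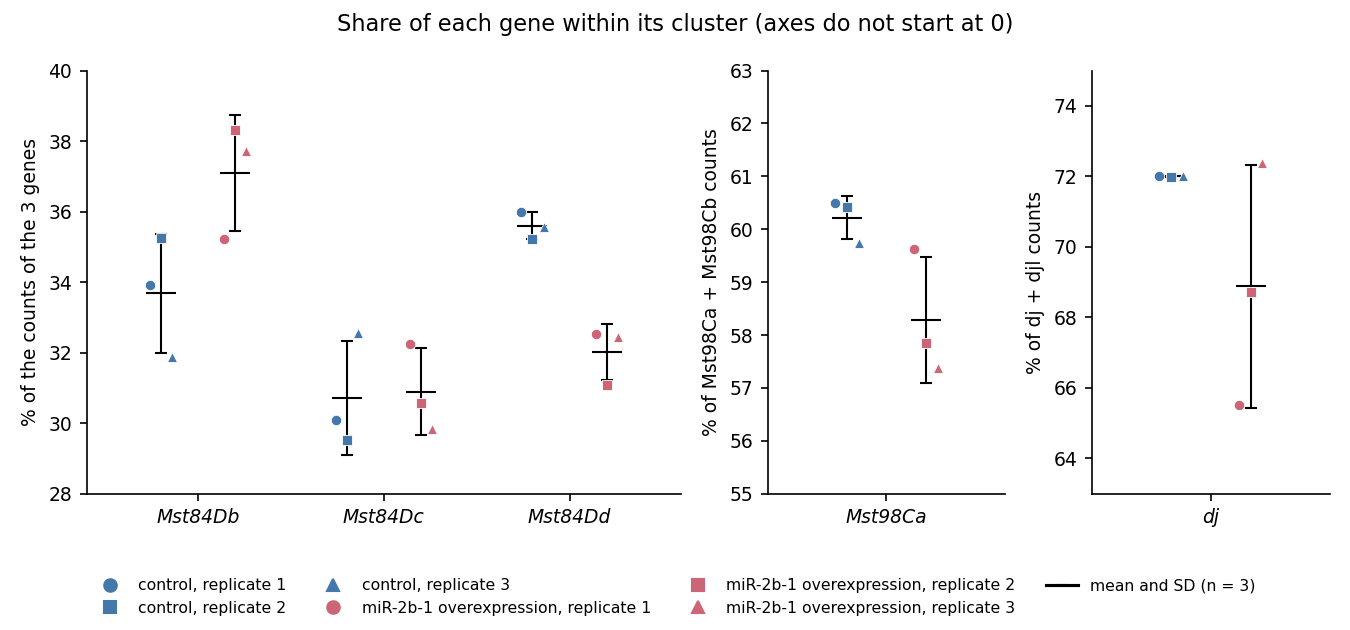
Share of each gene in the counts of its cluster, in percent, for the 3 abundant Mst84D genes, the Mst98C pair and the dj pair (y axes do not start at 0). Blue points are control libraries, red points overexpression libraries, and black marks the mean and SD of 3. The groups are apart for Mst84Dd and, narrowly, for Mst98Ca. The 3 control points for dj lie on one another at 72.0% while the red points run from 65.5% to 72.4%.

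The next genes on the chromosome were looked at after the members had been seen. Mst84B, another male-specific transcript gene, begins 255 bases after djl and was at 1070 ± 158 CPM in the control and 1070 ± 205 CPM under overexpression (SD, n = 3 each), with a log2 fold change of 0.00 (standard error 0.166). CG1979, on the other side of dj, was at 1294 ± 195 CPM and 1228 ± 227 CPM. UQCR-14L, which begins 184 bases after Mst98Cb, was at 194 ± 7.94 CPM and 166 ± 16.1 CPM, and CG17944, next to Mst84Dd, at 346 ± 29.8 CPM and 271 ± 23.0 CPM. The fitted log2 fold change was -0.22 for UQCR-14L and -0.35 for CG17944 (edgeR adjusted p = 0.494 and 0.227).

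Over the 6 libraries, the mean of the centred log2 levels of the 9 genes was lowest in overexpression replicate 1 (-0.23) and highest in control replicate 3 (0.19). Of the 2055 other genes with a mean of at least 100 CPM, the 5 whose log2 level followed this mean most closely were Cyt-c-d (Pearson r = 0.990), ocn (0.983), ymp (0.979), CG12126 (0.978) and CG13989 (0.976). The r values describe 6 libraries that share their scaling, and they are the highest of a large search. The 9 members followed one another unequally. The r of a member with the mean of the others ran from 0.28 (Mst84Da) to 0.96 (dj), with 0.42 for Mst84Db and 0.52 for Mst87F. Mst98Ca and Mst98Cb were lowest in overexpression replicate 2, and djl in overexpression replicate 3. Cyt-c-d encodes the cytochrome c used in spermatids, and ocn encodes a testis protein of the janus gene region. Cyt-c-d ran from 531 CPM in overexpression replicate 1 to 670 CPM in control replicates 2 and 3, and ocn from 2316 CPM in overexpression replicate 1 to 3417 CPM in control replicate 3. None of these 5 passed the edgeR test, and their adjusted p ran from 0.490 to 0.751.

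Other genes of sperm formation were read from the same fit, of whose 17559 genes 2.81% were called. The shares over all genes to read the other counts against are 19.3% of filtered genes at an unadjusted p under 0.05 and 5.48% by DESeq2. For the counts of signs, 6020 of the 12441 filtered genes were negative and 6421 positive. Genes of these lists that are named without being called were picked as examples after their values had been seen. Among 12 further genes named Mst or lying with ocn in the janus region, 0 were called by edgeR or DESeq2, 3 had an unadjusted p under 0.05, and 9 were negative on the log2 scale (median -0.19). The protamine gene ProtA was at 569 CPM in the control and 444 CPM under overexpression (log2 fold change -0.36, edgeR adjusted p = 0.301). The protamine gene ProtB was at 1229 and 1104 CPM (-0.15, edgeR adjusted p = 0.732), and reads shared between ProtA and ProtB could not be judged. The spermatid chromatin gene Mst77F was at 2530 and 2120 CPM (-0.26, edgeR adjusted p = 0.568). Among 12 late spermatid genes of the comet and cup type, 10 passed the filter and 0 were called by either tool, with 0 at an unadjusted p under 0.05. A negative log2 fold change was fitted for 9 and a positive one for 1, with a median of -0.09 for the 10 that passed. The genes swif and cola had 0 counts in each library. Of 15 genes of the mitochondrial derivative, 12 had a negative log2 fold change (list median -0.08) and 0 were called by edgeR, with 3 at an unadjusted p under 0.05, near the background, and 1 called by DESeq2. These 3 were ATPsynbetaL, the mitofusin gene fzo and nmd, with positive values of 0.64, 0.43 and 0.46.

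Of 17 axoneme and basal body genes, 1 was called (5.88%). This gene, unc, which encodes a basal body protein, rose from 8.26 ± 0.745 CPM in the control to 14.1 ± 2.25 CPM under overexpression (SD, n = 3 each). Its log2 fold change was 0.77 ± 0.185 (standard error), with an adjusted p of 0.0304 from edgeR. Its adjusted p was 0.0623 without control replicate 1, 0.210 without control replicate 2, 0.205 without overexpression replicate 1 and 0.161 without overexpression replicate 2. It was also 0.0542 with the newer quasi-likelihood method and 0.0932 with a prior without the robust option. The list median was -0.04, and DESeq2 called 2 of the 17. The list of 14 meiotic arrest genes and their partners includes drivers of the transcription of spermatid genes in spermatocytes. Of the 14, 12 had a positive log2 fold change (list median 0.28), with 7 at an unadjusted p under 0.05, 0 called by edgeR and 3 by DESeq2. The homeodomain gene achi, whose reads could be shared with its close copy vis, was at 33.2 CPM in the control and 50.2 CPM under overexpression (edgeR adjusted p = 0.0506), and the TAF6-like gene mia had a log2 fold change of -0.50 (adjusted p = 0.0882). Of 13 genes for RNA-binding proteins and translation factors of the germ line, 9 were positive (list median 0.26), with 4 at an unadjusted p under 0.05 and 0 called by edgeR or DESeq2. Fmr1, a translational repressor, had a value of 0.46 (adjusted p = 0.125), while bol and orb2, RNA-binding proteins needed for meiosis and spermatid differentiation, had values of -0.15 and -0.13.

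**Figure D5:**
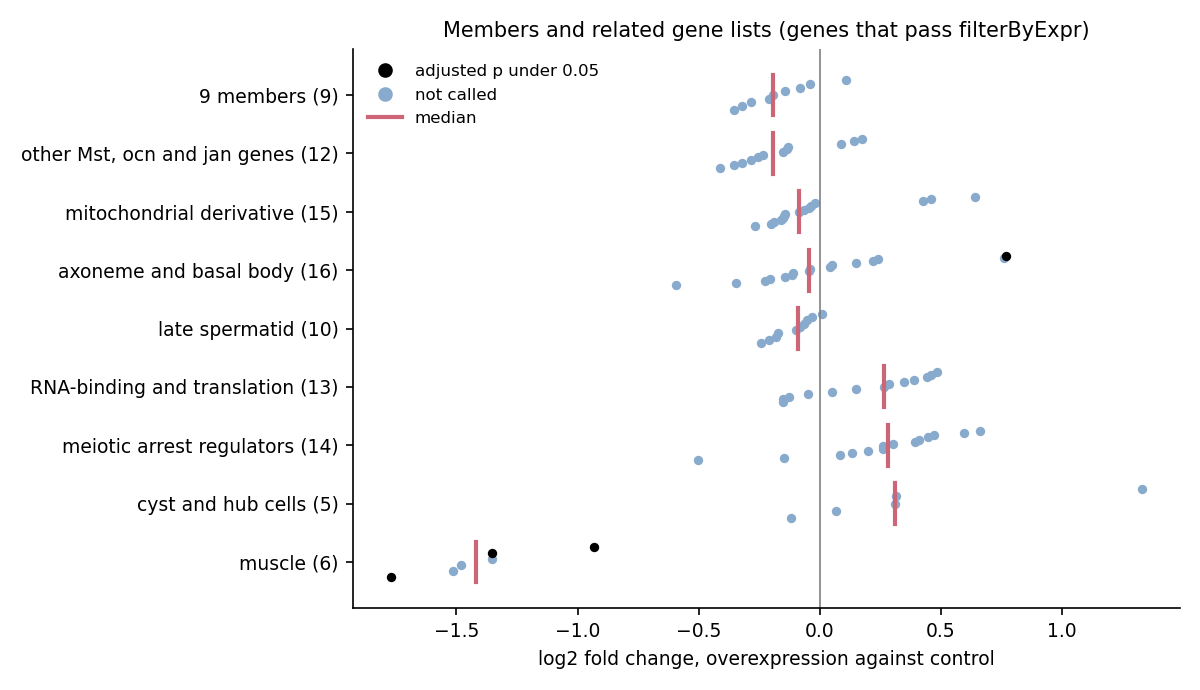
Log2 fold change under miR-2b-1 overexpression against control (x axis) for the 9 sperm tail genes and for related gene lists, with 1 point per gene that passed the filter, its number per list in parentheses and a red bar at the median. Black points are genes with an edgeR adjusted p under 0.05, namely unc and the muscle genes Mhc, Mlc1 and Mlc2. The medians are -0.19 for the 9 genes and 0.28 for the meiotic arrest genes.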

How the data were processed

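The authors aligned trimmed reads with STAR in Galaxy and counted them with featureCounts on an older Ensembl annotation of the same assembly, and they deposited whole-number counts per gene, without normalization. The submitters' processing notes name cutadapt, STAR, featureCounts, edgeR and dm6. A deposited table of the authors' own fold changes, mean levels, F values and p-values, and a second table with 6 columns of per-sample values, were not used. Rows that name no gene numbered 0.

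The test was that of edgeR 4.0.16 (R 4.3.3), fitted on all 17559 genes (TMM scaling, robust quasi-likelihood, older quasi-likelihood method, no filter, genotype as the only term, adjusted p under 0.05). CPM values are TMM-scaled. The standard error is the size of the log2 fold change over the square root of F, and 95% intervals use its degrees of freedom. The test was checked on simulated data. Total counts of 18047619 to 27789620 per library set the precision. No library was a copy of another, since pairs of libraries differed by a chi-square of at least 24.6 per degree of freedom.

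Members and lists were chosen with earlier results of these data known. Named were all members, up to 3 called genes per list of lowest p, and the 5 genes of highest r. Other genes of the lists, and neighbouring genes, were added as examples after their values had been seen. Exon lengths came from Ensembl release 115 and were found for all but 306 genes, and 11 list symbols that matched no counted gene were left out. Alternatives were RLE, upper-quartile and total scaling, DESeq2 1.42.0, a fit with the replicate number as a block, 2 filters on low counts (filterByExpr, and a minimum of 10 in each library), a prior without the robust option, edgeR's newer quasi-likelihood method, a threshold of 0.01, leaving out each replicate, and removal or fitting of accessory gland RNA. The count without Mst84Da and the values relative to the median gene were added after the data were seen. Seed sites and promoters were not examined.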

Additional observations from a re-analysis of the deposited data

How the results depend on the processing

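The number of sperm tail genes called was 0 under every alternative run, with replicates left out in turn and without Mst84Da included. With 0 called in the main fit, the threshold of 0.01 and the count without Mst84Da could not give another number. Of 162 fold changes of the 9 genes under the alternatives, 157 kept their sign, and of the 153 that had an adjusted p 0 passed the threshold. The 5 that changed sign were Mst84Da with library totals alone (0.027) and without control replicate 2 (0.055), and Mst84Dc with library totals alone (0.074), without control replicate 3 (0.075) and without overexpression replicate 1 (0.066). The prior without the robust option and the newer quasi-likelihood method left the fitted values nearly unchanged. The values relative to the median gene moved by 0.01, less than the size of any of the 9. In these 3 settings the signs could hardly change. With 1 library left out, Mst84Da ran from -0.16 to 0.055, Mst84Dc from -0.13 to 0.075, Mst84Db from 0.022 to 0.27, Mst84Dd from -0.28 to -0.070, Mst87F from -0.43 to -0.17, Mst98Ca from -0.41 to -0.24, Mst98Cb from -0.31 to -0.11, dj from -0.46 to -0.24 and djl from -0.25 to -0.032. Over all the alternatives with an adjusted p, that of dj ran from 0.143 to 0.757 and that of Mst98Ca from 0.155 (DESeq2) to 0.657. The difference in the summed share of counts, -0.0952 percentage points, ran from -0.155 to -0.00535 across the comparisons without 1 library, the last without overexpression replicate 1.

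Over all genes, 493 were called. The number was 742 with DESeq2, 734 with the accessory gland level fitted as a covariate and 498 with the gland and duct counts removed. It was 236 with a prior without the robust option and 251 at an adjusted p under 0.01, and with 1 library left out it ran from 205 to 923. The lowest came without replicate 2 and the highest without replicate 3 of the overexpression group, and 242 and 240 genes were called without control replicate 2 and overexpression replicate 1. The cause was not tested. TMM gave 227 higher and 266 lower genes, upper-quartile scaling 223 and 414, and library totals alone 316 and 191. In the fits without 1 library, 0 to 6 of 6 muscle genes, 0 to 2 of 17 axoneme genes, 0 to 2 of 14 meiotic arrest genes, 0 to 2 of 15 mitochondrial derivative genes, 0 to 2 of 5 fat body genes and 0 to 1 of 13 translation genes were called. DESeq2 called 6, 2, 3, 1, 0 and 0 of them.

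With the replicate number as a block, 349 genes were called, 311 of them shared with the fit without it, and 0 of the 9 sperm tail genes and 0 of the 6 muscle genes were called. The adjusted p with the block was 0.272 for dj, 0.359 for Mst98Ca, 0.0620 for unc, 0.0826 for Mhc, 0.136 for Mlc1 and 0.212 for Mlc2. The deviations of same-numbered libraries from their group means correlated at -0.58, 0.28 and 0.54 across genes, so the numbers do not show a pairing.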
